A study of Mus musculus with 9 samples.

Results

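The genes described here are 10 survival and death genes of the BCL2 family and of the inhibitors of apoptosis, measured by RNA sequencing in Caki, a cell line established from human kidney cancer of the clear cell type. They were chosen by name, as BCL2, BCL2L1, MCL1, BIRC2, BIRC3, XIAP, BAX, BBC3, BCL2L11 and PMAIP1, and each had 1 row among the 58735 genes of the deposited count table. All 10 had enough counts to be tested, as did 15492 genes in all. The cells carried 1 of 3 retroviral constructs, with 3 libraries each. The YAP1-S127A group carried YAP1 in which alanine replaces the serine at residue 127, a form that the labels call constitutively active. YAP1 cells carried the wild-type form, and MX cells carried the empty vector MXIV. All groups were grown in DMEM/F12 with serum, went through the same transfer of vector and were selected with G418, and all kept their own YAP1 gene. The labels do not say whether a construct was studied in a pool of cells or in 1 clone, nor whether replicate libraries stand for separate cultures. The p-values therefore cover the spread among these 9 libraries alone, and that spread may be technical.

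Cells die by the intrinsic route of apoptosis when BAX or its relative BAK1 opens pores in the outer mitochondrial membrane. BCL2, BCL2L1 (BCL-XL) and MCL1 hold these effectors in check, and the BH3-only proteins BBC3 (PUMA), BCL2L11 (BIM) and PMAIP1 (NOXA) bind and neutralise those guardians. Further down, XIAP inhibits caspases directly, whereas BIRC2 (cIAP1) and BIRC3 (cIAP2) are ubiquitin ligases of the TNF receptor complex. Kidney tumours express several of these guardians, and YAP1, a coactivator of TEAD transcription factors restrained by the Hippo kinases, is known for promoting survival as well as growth in epithelial cells.

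Libraries held 15789722 to 24811150 counts in all. Levels are given as TMM-scaled CPM, the counts of a gene in relation to those of the whole library, with the mean ± SD over 3 libraries, and differences as log2 fold changes from edgeR's quasi-likelihood test, with the standard error (SE) or an interval of 2 SE on either side. A gene was called higher or lower at a Benjamini-Hochberg adjusted p under 0.05 over all tested genes. YAP1 itself had 741, 692 and 631 CPM in the YAP1-S127A libraries, 1520, 1003 and 1137 CPM in the YAP1 libraries and 108, 100.3 and 91.1 CPM in the MX libraries. Every library with a construct thus stood above every MX library, as the labels have it, and wild-type YAP1 stood above YAP1-S127A. Counts of mitochondrial genes took 7.40 to 29.6% of a YAP1-S127A library, 3.50 to 11.4% of a YAP1 library and 1.896 to 6.60% of an MX library. Of 11 kidney and clear cell carcinoma markers 9 were tested. They summed to 5928 to 8178 CPM in YAP1-S127A, 5575 to 6826 CPM in YAP1 and 6117 to 7533 CPM in MX libraries, with PAX8 at a mean of 262 CPM in YAP1-S127A, 297 CPM in YAP1 and 285 CPM in MX cells, while CA9 and PAX2 reached at most 18 counts and 1 count in a library. Leukocyte markers summed to 1.01 to 3.23 CPM, with CD3E at 0, and endothelial markers to 0.754 to 1.89 CPM in a library. The 8 fibroblast and stroma markers summed to 2099 to 3820 CPM in YAP1-S127A, 1327 to 1682 CPM in YAP1 and 773 to 1308 CPM in MX libraries, most of it COL1A1. Of the 4 that were tested, 3 rose in YAP1-S127A against MX by edgeR's quasi-likelihood test, COL1A1 by 1.60 on the log2 scale, LUM by 3.53 (adjusted p = 8.18e-08; 9.53 CPM in YAP1-S127A, 2.53 CPM in YAP1 and 0.871 CPM in MX cells) and PDGFRB by 0.63 (adjusted p = 0.00579; 46.8, 26.0 and 30.2 CPM in the same groups). POSTN, PDGFRA and THY1 had no more than 1, 5 and 11 counts in a library. The part of these shifts in the results was not tested. In RNA from a whole culture, expression in fewer cells and less RNA per cell cannot be told apart.

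In YAP1-S127A cells the guardian BCL2L1 and the BH3-only gene PMAIP1 rose, and the guardian BCL2 and the BH3-only gene BCL2L11 fell, each by about the same modest factor. The other 6 genes, among them all 3 inhibitors of apoptosis and BAX, were not called. The calls were thus 2 higher and 2 lower among 10 genes, where 18.4% of all tested genes were called in this comparison, 9.53% higher and 8.84% lower. The libraries of the groups did not overlap for 4 of the 10, against 32.6% of all tested genes. The median log2 fold change of the 10 genes was 0.06, beside -0.00 over all tested genes. DESeq2 and limma-voom each called 4 of the 10 as well. The count rests on some single libraries: without YAP1-S127A replicate 3 it was 1 higher and 0 lower. With YAP1-S127A reduced to replicate 2, the library of that group with a mitochondrial share of 7.40%, it was again 1 higher and 0 lower. Scaled by total counts, which put the median of all genes at -0.28, it was 0 higher and 4 lower.

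**Figure D1:**
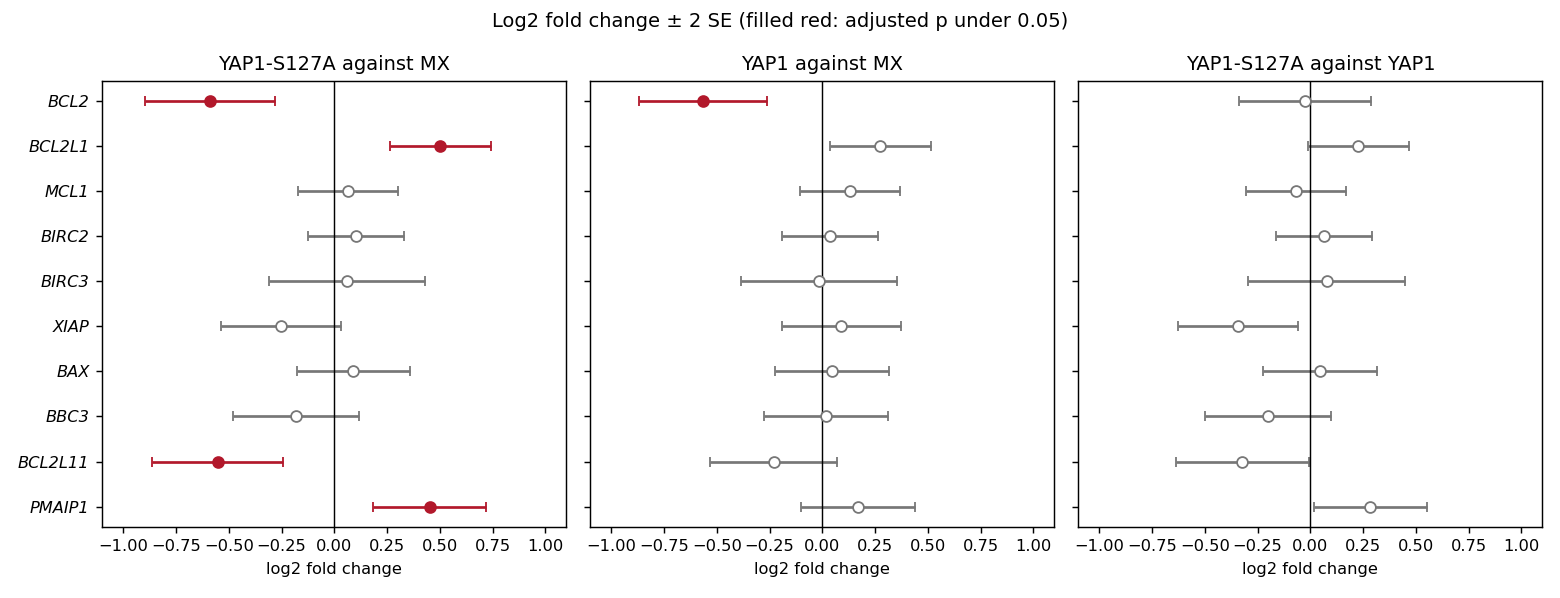
Log2 fold change of each of the 10 genes in 3 comparisons, YAP1-S127A against MX, YAP1 against MX and YAP1-S127A against YAP1, with bars of 2 SE on either side and filled points where edgeR's adjusted p was under 0.05. BCL2L1 and PMAIP1 lie above 0 and BCL2 and BCL2L11 below it in YAP1-S127A against MX, BCL2 alone is filled in YAP1 against MX, and no point is filled between the constructs.

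Among the guardians, BCL2L1 (ENSG00000171552, chromosome 20, 31664452 to 31723989, minus strand, in the coordinates of the table) rose. It had 149, 165 and 147 CPM in the YAP1-S127A libraries, 149, 128 and 118 CPM in the YAP1 libraries and 100.2, 119 and 106 CPM in the MX libraries. Every YAP1-S127A library was above every MX library, and the YAP1 libraries lay between, with 1 as high as the YAP1-S127A libraries and 1 at the level of the highest MX library. The log2 fold change in YAP1-S127A against MX was 0.50 (SE 0.12, adjusted p = 0.00552 in edgeR's quasi-likelihood test), a rise of 41.7%. With wild-type YAP1 against MX it was 0.28, with an interval of 0.04 to 0.51 and an adjusted p of 0.197. Between the constructs it was 0.23, with an interval of -0.01 to 0.47 (adjusted p = 0.461), so that neither an equal level nor a higher one in YAP1-S127A can be read from these libraries. The rise against MX was called in 9 of 9 fits that left out 1 library, with adjusted p-values up to 0.0337, and with YAP1-S127A reduced to replicate 2 (log2 fold change 0.60, adjusted p = 0.0430). Scaling by total counts gave 0.24 (adjusted p = 0.265), which is 0.52 relative to the median of all genes under that scaling.

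BCL2 (ENSG00000171791, chromosome 18, 63123346 to 63320128, minus strand), the founding guardian of the family, moved the other way. It had 10.6, 11.9 and 10.3 CPM in the YAP1-S127A libraries, 10.1, 10.9 and 12.4 CPM in the YAP1 libraries and 19.5, 14.7 and 15.0 CPM in the MX libraries. All 6 libraries with a construct were below all 3 MX libraries, and the constructs overlapped each other fully. BCL2 fell by 0.59 on the log2 scale in YAP1-S127A against MX (SE 0.15, edgeR adjusted p = 0.0106), a change of -33.5%. It fell by 0.56 in YAP1 against MX (SE 0.15, edgeR adjusted p = 0.0275), a change of -32.4%. These comparisons share the MX libraries, of which replicate 1 was at 131% of the mean of the other pair. Between the constructs the difference was -0.02, with an interval of -0.34 to 0.29 (adjusted p = 0.972). The fall in YAP1-S127A was not called without YAP1-S127A replicate 3 (-0.54, adjusted p = 0.0600), with the mitochondrial share as a covariate (-0.57, adjusted p = 0.139) or with YAP1-S127A reduced to replicate 2 (-0.48, adjusted p = 0.261), so the size of the fall changed little with the covariate. The fall in YAP1 was not called without MX replicate 1 (adjusted p = 0.0916), YAP1 replicate 1 (0.111) or YAP1 replicate 2 (0.113).

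MCL1 (ENSG00000143384, chromosome 1, 150574551 to 150579738, minus strand), the short-lived guardian that NOXA binds, showed no call. Its level was 315, 309 and 316 CPM in the YAP1-S127A libraries, 314, 335 and 337 CPM in the YAP1 libraries and 310.3, 255 and 334 CPM in the MX libraries. The groups overlapped, with MX replicate 2 below the rest. The log2 fold change in YAP1-S127A against MX was 0.06, with an interval of -0.17 to 0.30 (adjusted p = 0.762), and it was -0.042 without MX replicate 2.

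**Figure D2:**
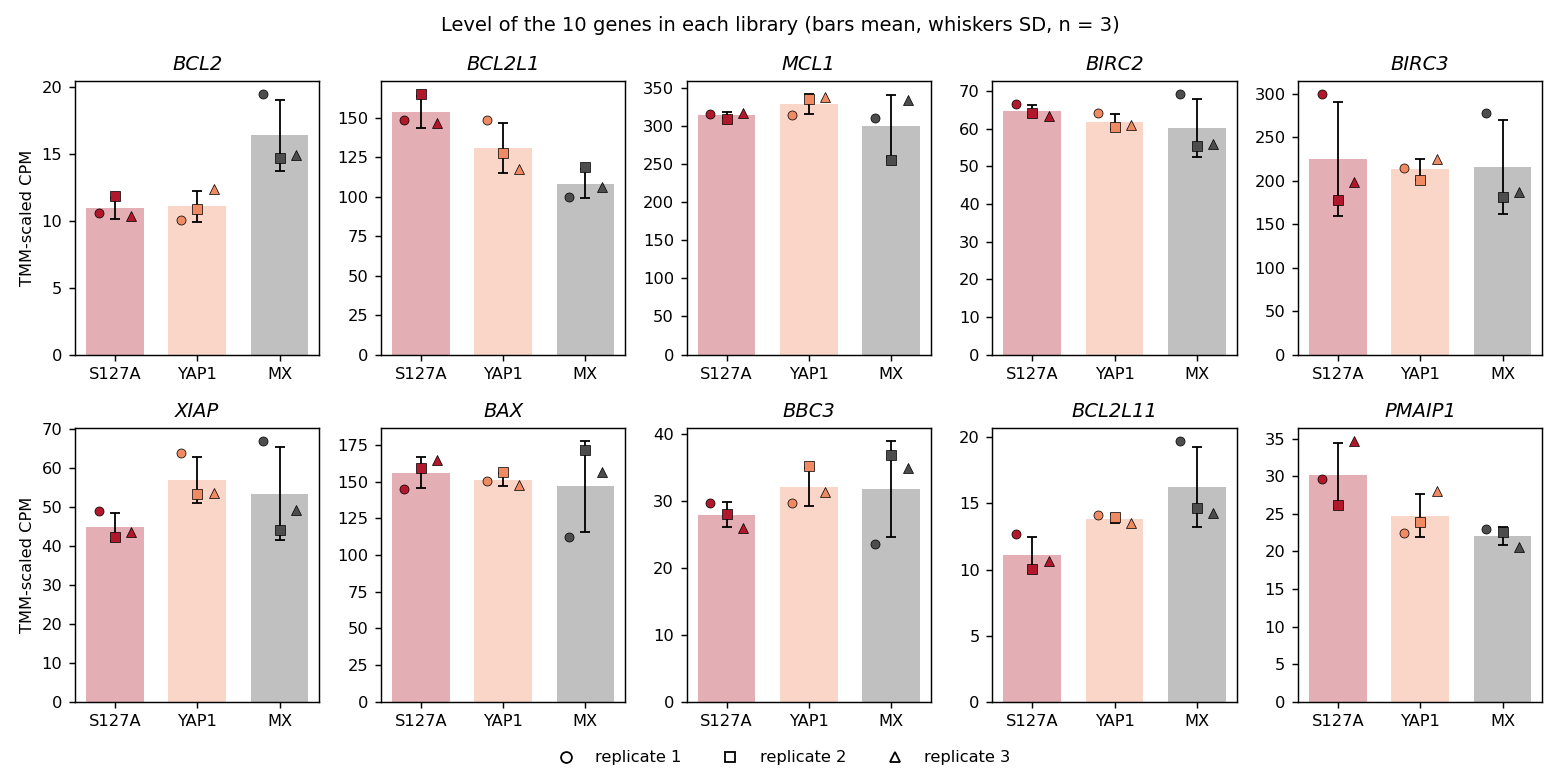
TMM-scaled CPM of the 10 genes in each of the 9 libraries, in groups YAP1-S127A, YAP1 and MX, with bars for the mean, whiskers for the SD over 3 libraries and marker shapes for the replicate number. BCL2L1 and PMAIP1 are higher in all YAP1-S127A libraries than in any MX library, BCL2 is lower in all 6 libraries with a construct, and MX replicate 1 lies away from the other MX libraries for BIRC3, XIAP, BAX, BBC3 and BCL2L11.

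The balance within the guardians was also read per length, as CPM per kilobase of the gene length deposited beside the counts. Whether that length matches the transcripts made in these cells was not tested. Shares and orders across genes therefore hold for this scale only. On this scale MCL1 made up 60.3% ± 1.83 of the summed level of BCL2, BCL2L1 and MCL1 in YAP1-S127A cells, 65.0% ± 3.50 in YAP1 cells and 66.6% ± 4.72 in MX cells (SD, n = 3 each). BCL2L1 made up 38.9% ± 1.79 in YAP1-S127A, 34.2% ± 3.59 in YAP1 and 32.1% ± 4.75 in MX cells. BCL2 was a small part in each group, 0.780% ± 0.0427 in YAP1-S127A, 0.817% ± 0.101 in YAP1 and 1.36% ± 0.230 in MX cells. Among these 3 guardians the transcripts were therefore mainly MCL1 and BCL2L1 on this scale, and the gene that fell with both constructs was the scarcest of the 3. The ratio of BCL2L1 to BCL2 per length was 49.9 ± 0.477 in YAP1-S127A, 42.6 ± 9.41 in YAP1 and 24.0 ± 5.29 in MX cells, with no overlap of either construct with MX. No test was run on these shares and ratios.

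Of the BH3-only genes, PMAIP1 (ENSG00000141682, chromosome 18, 59899948 to 59904306, plus strand), which encodes NOXA, rose in YAP1-S127A cells. It had 29.6, 26.1 and 34.7 CPM in the YAP1-S127A libraries, 22.4, 23.9 and 28.0 CPM in the YAP1 libraries and 22.9, 22.6 and 20.6 CPM in the MX libraries. The YAP1-S127A libraries all lay above the MX libraries, and the YAP1 libraries overlapped both groups. The log2 fold change in YAP1-S127A against MX was 0.45 (SE 0.13, edgeR adjusted p = 0.0232), a rise of 36.9%. Wild-type YAP1 against MX gave 0.17 (adjusted p = 0.548), and between the constructs 0.28, with an interval of 0.02 to 0.55 (adjusted p = 0.402). The 3 YAP1-S127A libraries had mitochondrial shares of 29.6, 7.40 and 21.2%. The library with the smallest share had the smallest PMAIP1 level, while the one with the largest share did not have the largest level. All YAP1-S127A libraries had larger mitochondrial shares than the MX libraries. Share and construct therefore cannot be told apart, and the part of the share in the rise was not tested. With that share as a covariate the log2 fold change was 0.24 (adjusted p = 0.516), and with YAP1-S127A reduced to replicate 2 it was 0.24 (adjusted p = 0.534). The call was also lost without YAP1-S127A replicate 3 (0.34, adjusted p = 0.149), YAP1-S127A replicate 1 (adjusted p = 0.0512) or MX replicate 3 (adjusted p = 0.104). Scaled by total counts the difference was 0.17 (adjusted p = 0.455), or 0.45 relative to the median of all genes.

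BCL2L11 (ENSG00000153094, chromosome 2, 111119378 to 111168447, plus strand), which encodes BIM, fell in YAP1-S127A cells. It had 12.7, 10.0 and 10.7 CPM in the YAP1-S127A libraries, 14.1, 14.0 and 13.5 CPM in the YAP1 libraries and 19.7, 14.6 and 14.3 CPM in the MX libraries. The 3 groups did not overlap, with YAP1-S127A lowest and MX highest, and MX replicate 1 was at 136% of the mean of the other MX pair. BCL2L11 fell by 0.55 on the log2 scale in YAP1-S127A against MX (SE 0.16, edgeR adjusted p = 0.0167), a change of -31.8%. In YAP1 against MX the difference was -0.23 (adjusted p = 0.442), and between the constructs -0.32, with an interval of -0.64 to -0.01 (adjusted p = 0.418). Without MX replicate 1 the YAP1-S127A difference was -0.39 (adjusted p = 0.0737). The call was also lost without YAP1-S127A replicate 2 (adjusted p = 0.0715) or YAP1-S127A replicate 3 (0.0788), and with YAP1-S127A reduced to replicate 2 (-0.70, adjusted p = 0.0814). The value is uncertain for a further reason, since the long noncoding gene MIR4435-2HG overlaps BCL2L11 on the other strand, with 142 to 325 counts in a library, up to 163% of the count of BCL2L11. MIR4435-2HG averaged 16.3 CPM in YAP1-S127A, 13.8 CPM in YAP1 and 9.21 CPM in MX cells, and rose by 0.82 on the log2 scale in YAP1-S127A (edgeR adjusted p = 0.000274). It rose by 0.57 in YAP1 against MX (edgeR adjusted p = 0.0129), a call lost without YAP1 replicate 2 (0.0782). Libraries were made with a stranded kit, but the sources used here do not give the strand setting of the counting, and without it reads of the pair cannot be told apart.

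BBC3 (ENSG00000105327, chromosome 19, 47220822 to 47232766, minus strand), which encodes the p53 target PUMA, was not called. It had 29.7, 28.0 and 26.0 CPM in the YAP1-S127A libraries, 29.7, 35.2 and 31.3 CPM in the YAP1 libraries and 23.6, 36.8 and 34.9 CPM in the MX libraries. MX replicate 1 was the lowest of all 9 libraries, at 65.8% of the mean of the other MX pair, and the groups overlapped. The log2 fold change in YAP1-S127A against MX was -0.18, with an interval of -0.48 to 0.11 (adjusted p = 0.443). Without MX replicate 1 it was -0.37 (edgeR adjusted p = 0.0348), and scaled by total counts -0.45 (adjusted p = 0.0313), both past the threshold. Per length, PMAIP1 took 56.2% of the summed level of these 3 BH3-only genes in YAP1-S127A, 47.6% in YAP1 and 44.5% in MX cells. BBC3 took 36.9% in YAP1-S127A, 43.4% in YAP1 and 44.5% in MX cells, and BCL2L11 took 6.98%, 8.99% and 11.1% in the same groups.

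BAX (ENSG00000087088, chromosome 19, 48954815 to 48961798, plus strand), the pore-forming effector, showed no call. Its level was 145, 159 and 164 CPM in the YAP1-S127A libraries, 150.1, 156 and 148 CPM in the YAP1 libraries and 112, 172 and 156 CPM in the MX libraries. All 6 libraries with a construct lay within the span of the MX libraries, and the low library was again MX replicate 1, at 68.5% of the mean of the other pair. The log2 fold change was 0.09 in YAP1-S127A against MX, with an interval of -0.18 to 0.36 (adjusted p = 0.699), and 0.04 in YAP1 against MX (adjusted p = 0.899). Without MX replicate 1 these values were -0.079 and -0.12. BAX and BBC3 both lie on chromosome 19, whose genes deviated from their mean over all 9 libraries by a median of -0.06 on the log2 scale in MX replicate 1, 0.13 in replicate 2 and 0.09 in replicate 3. The median log2 fold change over chromosome 19 was -0.09 in YAP1-S127A against MX and -0.07 in YAP1 against MX.

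The inhibitors of apoptosis gave no call in any of the 3 comparisons. BIRC3 (ENSG00000023445, chromosome 11, 102317450 to 102339403, plus strand), a target as well as a regulator of NF-kB signalling, had 299.4, 177 and 198 CPM in the YAP1-S127A libraries, 215, 200.2 and 224 CPM in the YAP1 libraries and 278, 181 and 187 CPM in the MX libraries. Replicate 1 was far above the other pair in both YAP1-S127A and MX, where it reached 151% of their mean, so the spread within those groups exceeded any difference between groups. The log2 fold change was 0.06 in YAP1-S127A against MX, with an interval of -0.31 to 0.43 (adjusted p = 0.868, and -0.20 without YAP1-S127A replicate 1), and -0.02 in YAP1 against MX (adjusted p = 0.976). BIRC2 (ENSG00000110330, chromosome 11, 102347211 to 102378670, plus strand), its neighbour and paralog, had 66.7, 64.1 and 63.5 CPM in the YAP1-S127A libraries, 64.2, 60.5 and 61.0 CPM in the YAP1 libraries and 69.2, 55.4 and 56.1 CPM in the MX libraries. The groups overlapped, and the log2 fold change in YAP1-S127A against MX was 0.10, with an interval of -0.13 to 0.33 (adjusted p = 0.589).

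XIAP (ENSG00000101966, chromosome X, 123859724 to 123913979, plus strand), the direct caspase inhibitor, had its lowest mean in YAP1-S127A cells without passing the test. It had 49.0, 42.2 and 43.4 CPM in the YAP1-S127A libraries, 63.8, 53.4 and 53.5 CPM in the YAP1 libraries and 66.9, 44.1 and 49.2 CPM in the MX libraries. The YAP1-S127A libraries lay below all YAP1 libraries and overlapped the MX libraries, of which replicate 1 was at 143% of the mean of the other pair. Between the constructs the log2 fold change was -0.34, with an interval of -0.63 to -0.06 (edgeR adjusted p = 0.318). Against MX it was -0.25, with an interval of -0.54 to 0.03 (adjusted p = 0.238). Scaled by total counts both passed, at -0.54 against MX (adjusted p = 0.00820) and -0.56 between the constructs (adjusted p = 0.0331), which is -0.26 and -0.36 relative to the median of all genes under that scaling.

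In the comparison of wild-type YAP1 with MX, BCL2 was the 1 gene of 10 that was called, lower, where 6.81% of all tested genes were called, 3.23% higher and 3.58% lower. The groups did not overlap for BCL2 and BCL2L11, 2 of 10 genes, against 24.1% of all tested genes. BCL2 and BCL2L1 were the 2 genes with an unadjusted p under 0.05. BCL2L1 ranked 2520 by p among the 15492 tested genes, so at least 2520 genes were under that threshold. DESeq2 and limma-voom each called 1 gene. The median log2 fold change of the 10 genes was 0.04, beside -0.00 over all tested genes. Without MX replicate 1, YAP1 replicate 1 or YAP1 replicate 2 the count was 0, with the adjusted p-values of BCL2 given above.

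Between YAP1-S127A and YAP1 edgeR's quasi-likelihood test called 0 of the 10 genes, where 1.97% of all tested genes were called, 1.13% higher and 0.839% lower in YAP1-S127A. XIAP and PMAIP1 were the 2 genes with an unadjusted p under 0.05. PMAIP1 ranked 1855 by p among the 15492 tested genes, so at least 1855 genes were under that threshold. DESeq2 and limma-voom called 0. XIAP and BCL2L11 were the 2 genes whose groups did not overlap, against 19.6% of all tested genes. Log2 fold changes ran from -0.34 for XIAP to 0.28 for PMAIP1, with a median of 0.01, beside 0.01 over all tested genes. YAP1 itself was lower by 0.83 on the log2 scale in YAP1-S127A than in YAP1 cells (adjusted p = 0.00383), so the constructs were compared at unequal YAP1 transcript levels.

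Read per length, the order of the 10 genes was nearly the same in all groups, with MCL1 highest, then BAX, BCL2L1, BIRC3 and BIRC2, and with XIAP, BCL2L11 and BCL2 at the low end. MCL1 averaged 71.7 CPM per kilobase in YAP1-S127A, 75.1 in YAP1 and 68.6 in MX cells. BAX averaged 60.3 CPM per kilobase in YAP1-S127A, 58.5 in YAP1 and 56.7 in MX cells, and BCL2L1 averaged 46.4 in YAP1-S127A, 39.6 in YAP1 and 32.7 in MX cells. BCL2 closed the order with 0.930 CPM per kilobase in YAP1-S127A, 0.944 in YAP1 and 1.39 in MX cells. PMAIP1 stood above BBC3 in YAP1-S127A and YAP1 cells, with 13.5 against 8.78 CPM per kilobase in YAP1-S127A and 11.1 against 10.1 in YAP1, and just below it in MX cells, with 9.87 against 9.98. Neighbours in the order overlapped over libraries for BIRC2 and PMAIP1 in YAP1-S127A and for PMAIP1 and BBC3 in YAP1. In MX they overlapped for MCL1 and BAX, for BCL2L1 and BIRC3, and for BBC3 and PMAIP1. In YAP1-S127A and YAP1 cells BCL2L1 thus stood clear of BIRC3, which in MX cells it did not. The MX overlap came from replicate 1 alone, where BIRC3 had 37.0 CPM per kilobase and BCL2L1 had 30.3. In MX replicates 2 and 3 BIRC3 had 24.1 and 24.9 CPM per kilobase, below BCL2L1 in every MX library. The contrast between the groups therefore rests on 1 library.

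**Figure D3:**
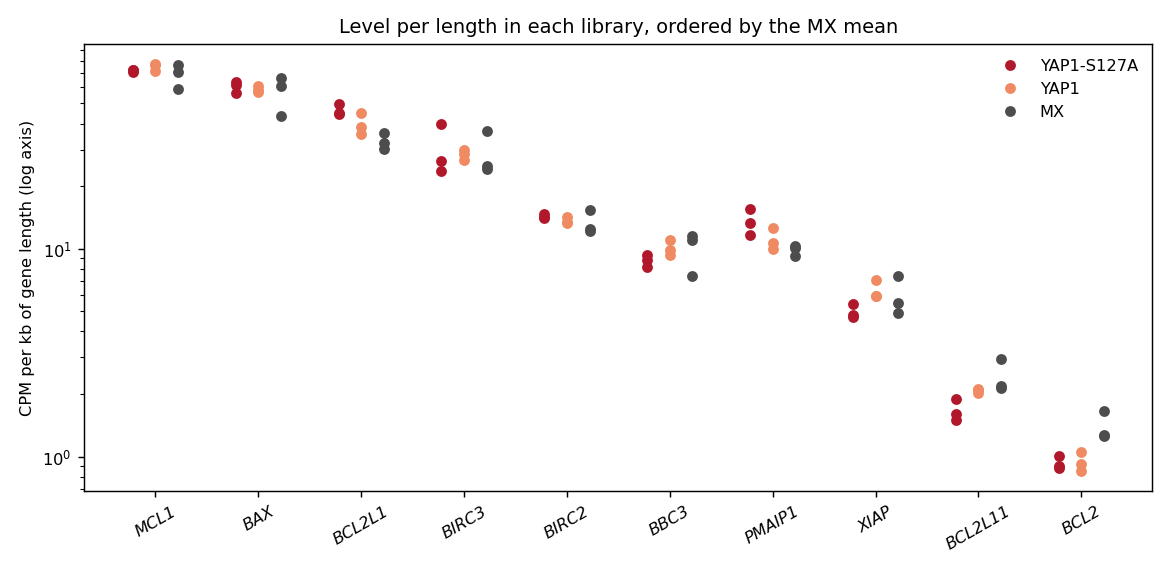
CPM per kilobase of deposited gene length for the 10 genes, on a log axis, for YAP1-S127A, YAP1 and MX, with 1 point per library, in the order of the MX mean. MCL1, BAX and BCL2L1 stand at the top, and BCL2 stands at the bottom in all 3 groups, at 0.930, 0.944 and 1.39.

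BIRC3 and BIRC2 lie beside YAP1 on chromosome 11, starting 207 kb and 237 kb past its start, and the 3 genes are known to be gained together in some tumours. Of 21 genes starting within 500 kb of the YAP1 start, 9 besides YAP1 were tested, 7 of them protein-coding. Where YAP1 was higher by 2.78 on the log2 scale in YAP1-S127A and by 3.61 in YAP1 than in MX cells, BIRC3, BIRC2 and TMEM123 had differences of 0.06, 0.10 and 0.09 in YAP1-S127A and of -0.02, 0.04 and 0.09 in YAP1. MMP7, a matrix metalloprotease at 410 kb, fell by 1.62 on the log2 scale in YAP1-S127A (edgeR adjusted p = 9.37e-06) and by 0.95 in YAP1 (edgeR adjusted p = 0.00390, and 0.0540 without MX replicate 1). MMP7 averaged 352 CPM in YAP1-S127A, 562 CPM in YAP1 and 1084 CPM in MX cells. CEP126, a centrosomal gene at -195 kb, fell by 0.71 in YAP1-S127A (edgeR adjusted p = 0.0229). That call was lost without MX replicate 1 (0.0875), MX replicate 3 (0.0504), YAP1-S127A replicate 2 (0.0944) or YAP1-S127A replicate 3 (0.125). CFAP300 was not called, at -0.31 in YAP1-S127A (adjusted p = 0.343). MMP20, with at most 13 counts in a library, was called higher in YAP1 against MX (1.92, edgeR adjusted p = 0.0484), which was kept in 1 of 9 fits without 1 library, with adjusted p-values up to 0.161 without YAP1 replicate 2.

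**Figure D4:**
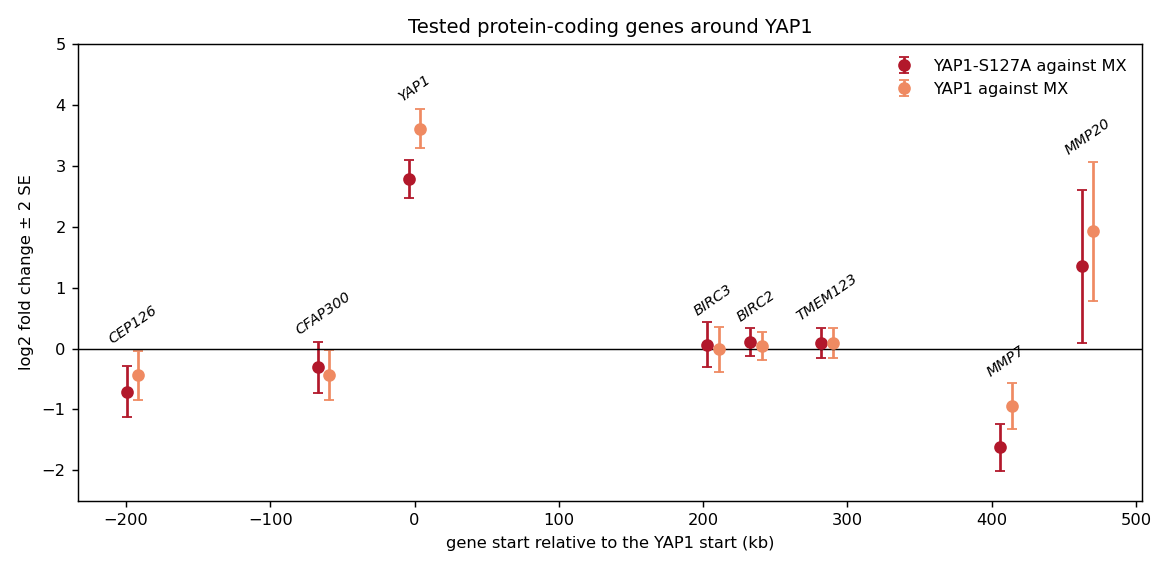
Log2 fold change with 2 SE on either side of the tested protein-coding genes around YAP1, against the distance of their start from the YAP1 start in kilobases, for YAP1-S127A against MX and YAP1 against MX. YAP1 stands at 2.78 and 3.61, BIRC3 and BIRC2 lie near 0, and MMP7 lies below 0 in both comparisons.

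Relatives of the 10 genes, taken from lists of the same 4 roles, comprised 14 further genes. BCL2L10, HRK, BIRC7 and NAIP had at most 12 counts in a library and were not tested, which left 10. In YAP1-S127A against MX 5 of these rose and 0 fell, where 9.53% of all tested genes were called higher and 8.84% lower. The median log2 fold change was 0.50, with 8 of the 10 above 0. An unadjusted p under 0.05 was reached by 7, a share not counted over all tested genes. Among these 7 was BMF, a BH3-only gene of low level, which was lower, at -1.49, without a call (edgeR adjusted p = 0.0604). BMF averaged 0.415 CPM in YAP1-S127A, 0.666 CPM in YAP1 and 1.11 CPM in MX cells, and YAP1-S127A and MX libraries did not overlap. Scaled by total counts BAD (0.34, adjusted p = 0.103), BOK (0.31, adjusted p = 0.155) and BIRC5 (0.17, adjusted p = 0.449) lost their calls, and BAK1 and BIK kept them. BAK1, the effector that acts beside BAX, averaged 59.3 ± 8.50 CPM in YAP1-S127A, 48.2 ± 5.61 CPM in YAP1 and 36.2 ± 6.22 CPM in MX cells (SD, n = 3 each). It rose by 0.71 on the log2 scale (SE 0.14, edgeR adjusted p = 0.00146), and this call was kept in 9 of 9 fits without 1 library and under 12 of 12 other settings. BAD, a BH3-only gene that binds BCL2 and BCL-XL, averaged 64.2 CPM in YAP1-S127A, 50.2 CPM in YAP1 and 42.6 CPM in MX cells, and rose by 0.60 (edgeR adjusted p = 0.00675), a call kept in 9 of 9 such fits and lost with total counts, as given above. BIK, a BH3-only gene of low level, averaged 3.40 CPM in YAP1-S127A, 2.41 CPM in YAP1 and 1.54 CPM in MX cells, and rose by 1.14 (edgeR adjusted p = 0.00415), also in 9 of 9, with an adjusted p of 0.0620 when YAP1-S127A was reduced to replicate 2.

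BOK and BIRC5 rose as well, with less stable calls. BOK, a further pore-forming relative, averaged 42.6 CPM in YAP1-S127A, 30.8 CPM in YAP1 and 28.8 CPM in MX cells. It rose by 0.57 (edgeR adjusted p = 0.0158), which was lost without MX replicate 1 (0.0548) or YAP1-S127A replicate 2 (0.0797). BIRC5, survivin, which acts mainly in cell division, averaged 199 CPM in YAP1-S127A, 171 CPM in YAP1 and 149 CPM in MX cells. It rose by 0.42 (edgeR adjusted p = 0.0314), which was lost without MX replicate 1 (0.0934), YAP1 replicate 2 (0.0529), YAP1-S127A replicate 2 (0.175) or YAP1-S127A replicate 3 (0.0571). In YAP1 against MX edgeR called 0 of the 10 tested relatives, where 6.81% of all tested genes were called. An unadjusted p under 0.05 was reached by 3 of them, and the median was 0.22. Between the constructs edgeR again called 0, where 1.97% of all tested genes were called, with 3 at an unadjusted p under 0.05 and a median of 0.18.

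Grouped by role, members and relatives together, YAP1-S127A against MX gave the following counts. Of the 5 tested antiapoptotic BCL2 proteins 1 rose and 1 fell, of the 3 pore-forming effectors 2 rose and 0 fell, and of the 7 BH3-only proteins 3 rose and 1 fell. Of the 5 tested inhibitors of apoptosis 1 rose and 0 fell. Over all tested genes the shares were 9.53% higher and 8.84% lower. Scaled by total counts the antiapoptotic proteins had 0 higher and 1 lower, the effectors 1 higher and 0 lower, the BH3-only proteins 1 higher and 3 lower, and the inhibitors of apoptosis 0 higher and 1 lower. Median log2 fold changes were 0.23 for the antiapoptotic proteins, 0.57 for the effectors, 0.42 for the BH3-only proteins and 0.06 for the inhibitors of apoptosis, beside -0.00 over all tested genes. The only call in these 4 lists in YAP1 against MX was BCL2, with medians of 0.13, 0.10, 0.17 and 0.09 in the same order. DESeq2 and limma-voom called BCL2's list once and the other 3 lists 0 times in YAP1 against MX.

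**Figure D5:**
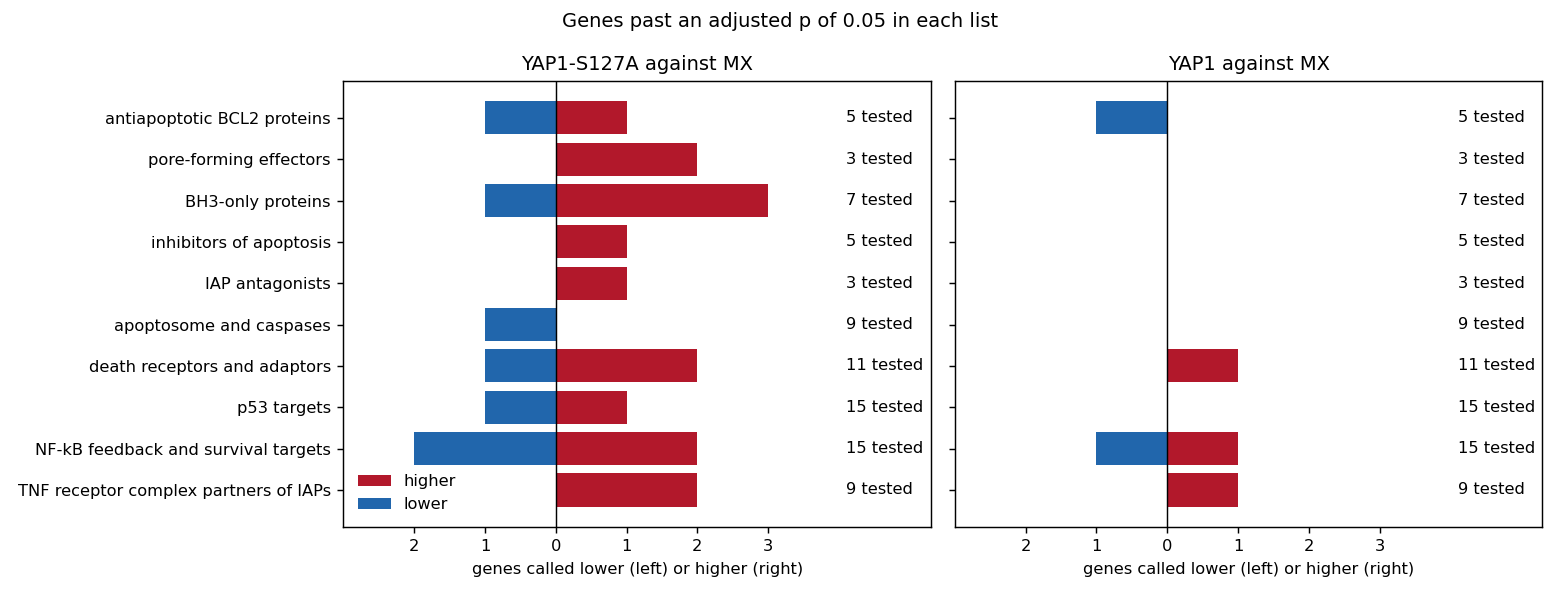
Number of tested genes called higher and lower in each of 10 pathway lists, in YAP1-S127A against MX and YAP1 against MX. BH3-only proteins have 3 calls higher and 1 lower in YAP1-S127A against MX, and the lists of BH3-only proteins, effectors and inhibitors of apoptosis have 0 calls in YAP1 against MX.

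Downstream of the mitochondria, the 9 genes of the apoptosome and caspases had 0 higher and 1 lower in YAP1-S127A against MX, with a median of -0.18. Among all tested genes 9.53% were called higher and 8.84% lower in this comparison. The 1 call, CASP10, an initiator caspase of death receptors, fell by 0.44 (edgeR adjusted p = 0.0481), and it was called in 1 of 9 fits without 1 library, with adjusted p-values up to 0.154 without YAP1-S127A replicate 2. The difference was 0.20 on the log2 scale for APAF1, the scaffold of the apoptosome (adjusted p = 0.432). Of 3 tested IAP antagonists, HTRA2, a mitochondrial protease that binds XIAP, rose by 0.51 (edgeR adjusted p = 0.0206), called in 6 of 9 fits without 1 library, with adjusted p-values up to 0.0742 without YAP1-S127A replicate 2.

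In the extrinsic route, 11 death receptor and adaptor genes were tested, of which 2 rose and 1 fell in YAP1-S127A against MX. Among all tested genes 9.53% were called higher and 8.84% lower. TNFRSF10A, a receptor of the ligand TRAIL, averaged 21.7 ± 2.30 CPM in YAP1-S127A, 21.5 ± 1.103 CPM in YAP1 and 14.4 ± 0.831 CPM in MX cells (SD, n = 3 each). It rose by 0.60 on the log2 scale in YAP1-S127A (edgeR adjusted p = 0.00292, called in 9 of 9 fits without 1 library) and by 0.58 in YAP1 (edgeR adjusted p = 0.00766, and 0.0505 without MX replicate 3). CFLAR, which encodes the caspase-8 inhibitor FLIP, averaged 136 ± 14.1 CPM in YAP1-S127A, 126 ± 11.7 CPM in YAP1 and 97.1 ± 5.66 CPM in MX cells, and rose by 0.48 in YAP1-S127A (edgeR adjusted p = 0.00657, called in 9 of 9). Scaled by total counts both YAP1-S127A calls were lost, with TNFRSF10A at 0.31 (edgeR adjusted p = 0.162) and CFLAR at 0.20 (edgeR adjusted p = 0.359). Both were also lost with the mitochondrial share as covariate, at 0.43 for TNFRSF10A (edgeR adjusted p = 0.172) and 0.37 for CFLAR (edgeR adjusted p = 0.207). With YAP1-S127A reduced to replicate 2 the log2 fold changes were 0.43 for TNFRSF10A and 0.39 for CFLAR. The gene that fell, TNFSF10, encodes TRAIL itself. It fell by 0.60 (edgeR adjusted p = 0.0409), called in 3 of 9 fits without 1 library, with 0.235 without MX replicate 1 and 0.100 with the replicate block.

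PMAIP1, BBC3 and BAX are also textbook targets of p53, so 15 other p53 targets were read beside them. In YAP1-S127A against MX 1 rose and 1 fell, where 9.53% of all tested genes were called higher and 8.84% lower. The median log2 fold change was 0.16. Of the 15, 9 had an unadjusted p under 0.05, a share not counted over all tested genes. GADD45A, a stress response gene, averaged 77.3 ± 21.1 CPM in YAP1-S127A, 65.8 ± 3.61 CPM in YAP1 and 50.1 ± 2.30 CPM in MX cells (SD, n = 3 each), and rose by 0.63 (edgeR adjusted p = 0.00745). The call was lost without YAP1-S127A replicate 3 (edgeR adjusted p = 0.0616) and when scaled by total counts (0.33, edgeR adjusted p = 0.111). It was also lost with the mitochondrial share as covariate (0.17, edgeR adjusted p = 0.667). With YAP1-S127A reduced to replicate 2 the log2 fold change was 0.076. BTG2, an antiproliferative gene, averaged 11.9 ± 0.714 CPM in YAP1-S127A, 14.7 ± 0.787 CPM in YAP1 and 18.7 ± 1.24 CPM in MX cells. BTG2 fell by 0.65 (edgeR adjusted p = 0.00167, called in 9 of 9 fits without 1 library). The BTG2 call was lost with the mitochondrial share as covariate (-0.59, edgeR adjusted p = 0.0758). With YAP1-S127A reduced to replicate 2 the log2 fold change of BTG2 was -0.59. The difference was 0.28 for CDKN1A, which encodes the cell cycle inhibitor p21 (adjusted p = 0.131), and 0.11 for MDM2, the ligase that degrades p53 (adjusted p = 0.598). With wild-type YAP1 edgeR called 0 of the 15 against MX, where 6.81% of all tested genes were called. An unadjusted p under 0.05 was reached by 4 of the 15, and DESeq2 and limma-voom called 0.

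For the surroundings of BIRC2 and BIRC3, 15 feedback and survival targets of NF-kB and 9 partners in the TNF receptor complex were read. Of the NF-kB targets 2 rose and 2 fell in YAP1-S127A against MX, with a median of 0.18. Among all tested genes 9.53% were called higher and 8.84% lower. CXCL8, a chemokine, averaged 305 ± 137 CPM in YAP1-S127A, 219 ± 72.5 CPM in YAP1 and 72.8 ± 20.7 CPM in MX cells (SD, n = 3 each), and rose by 2.07 on the log2 scale (edgeR adjusted p = 0.0252). This call was kept in 4 of 9 fits without 1 library, with adjusted p-values up to 0.0743 without MX replicate 3. CXCL8 had a log2 fold change of 1.04 with the mitochondrial share as covariate (adjusted p = 0.0852) and of 1.13 with YAP1-S127A reduced to replicate 2 (adjusted p = 0.193), and the replicate block gave an adjusted p of 0.0811. NFKBIE rose and BCL3 and SOD2 fell by less than CXCL8, each called in 3 to 7 of those fits. Of the 9 TNF receptor partners 2 rose and 0 fell, beside the same shares of all tested genes. TAB2, an adaptor of the kinase TAK1, averaged 81.9 ± 9.20 CPM in YAP1-S127A, 79.0 ± 8.16 CPM in YAP1 and 56.9 ± 8.06 CPM in MX cells. TAB2 rose by 0.52 (edgeR adjusted p = 0.00718, called in 9 of 9 fits without 1 library, with 0.275 when scaled by total counts). The TAB2 call was also lost with the mitochondrial share as covariate (0.41, edgeR adjusted p = 0.215). With YAP1-S127A reduced to replicate 2 the log2 fold change of TAB2 was 0.38. MAP3K7, TAK1 itself, rose by 0.32 (edgeR adjusted p = 0.0482), called in 1 of 9, and by 0.035 (edgeR adjusted p = 0.888) when scaled by total counts. Against MX, wild-type YAP1 cells had NFKBIE higher by 0.47 (edgeR adjusted p = 0.0477), TAB2 higher by 0.47 (0.0307) and BCL3 lower, at -0.53 (0.0230), called in 1, 4 and 6 of 9 fits without 1 library. Between YAP1-S127A and YAP1 edgeR called 0 genes in each of the 10 pathway lists, where 1.97% of all tested genes were called. From 0 to 4 genes of a list had an unadjusted p under 0.05. DESeq2 called 1 gene, an NF-kB target, and limma-voom 0.

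The genes whose profile over the 9 libraries was most like that of a called member were looked up among 9522 protein-coding genes of sufficient level, by the Pearson correlation of log2 CPM. The points share libraries, scaling and group differences, so the values describe likeness in these libraries only. For BCL2L1 they were SHB (0.989), FTSJ1 (0.985), SLC7A5 (0.964), PDLIM1 (0.961) and IGFBP4 (0.960). For BCL2 they were SETD1B (0.952), RGS5 (0.939), PNMA2 (0.937), ARHGAP26 (0.929) and PDE4D (0.929). For BCL2L11 they were FNBP1L (0.977), GPATCH8 (0.971), KLHL4 (0.970), RBM43 (0.966) and CREB5 (0.963).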

How the data were processed

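Messenger RNA of 9 libraries, 3 per construct, was sequenced with a stranded kit on an Illumina HiSeq instrument, per the labels. The deposited values are raw whole-number counts per gene made by the authors, with no normalization in the table. The submitters' processing notes name HISAT2, Cufflinks, Salmon 1.9.0 and the mouse build GRCm39, with no role given, but the table holds human Ensembl genes, so the sources used here do not give the human build, annotation or counting program. No human genome was used, and no sequence is shown.

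From the counts, filterByExpr of edgeR 4.0.16 in R 4.3.3 kept 15492 of 58735 genes, which were scaled by TMM. One model held all 9 libraries, with a term for group and robust dispersions, and each of the 3 contrasts had a two-sided quasi-likelihood test, with p-values adjusted by Benjamini-Hochberg across the tested genes and a threshold of 0.05. The SE is the absolute log2 fold change over the square root of the F statistic. The fit was tested on simulated counts. The 10 genes, the pathway and marker lists and the tests were chosen with earlier results of these data known, and the lists carry no test of their own. Counts at an unadjusted p under 0.05 were made for the 10 genes and the lists only. No share of all tested genes stands beside those counts, but a rank by p is given for BCL2L1 and PMAIP1. Genes named beyond the 10 and YAP1 were up to 4 called genes with the smallest p per list, tested genes starting within 500 kb of YAP1, and for 3 called genes the 5 protein-coding genes of mean log2 CPM at least 3 most like each. APAF1, CDKN1A and MDM2 were named outside this rule, after their values were seen, for their roles. MIR4435-2HG, BMF and the untested genes were likewise named outside it. DIABLO has rows under more than 1 identifier, of which the first was used, with at most 80 counts in a library.

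The labels do not say whether replicate numbers pair libraries, and with 3 libraries per group the correlations cannot exclude it. Deviations from group means correlated by -0.178 to 0.204 within a number and by -0.254 to 0.207 across numbers. No libraries were duplicates. Alternatives were RLE and total-count scaling, no or a stricter filter, DESeq2 1.42.0, limma-voom (limma 3.58.1), the replicate block, mitochondrial genes left out, the mitochondrial share as covariate, removal of chromosome-wide shifts, only the groups compared, and each library left out. Reducing YAP1-S127A to replicate 2 was added after seeing the data. Total counts limit precision, and 3 counts stand for 0.107 to 0.229 CPM.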

Additional observations from a re-analysis of the deposited data

How the results depend on the processing

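Over 21 alternatives, the 4 calls among the 10 genes in YAP1-S127A against MX were kept in 20 for BCL2L1, 18 for BCL2, 17 for BCL2L11 and 15 for PMAIP1, and none of them changed direction. The fall of BCL2 in YAP1 against MX was kept in 18 of 21. Genes called over the whole table in YAP1-S127A against MX numbered 2845, and 4447 with total-count scaling (611 higher and 3836 lower), 1405 with the mitochondrial share as covariate, 1278 with YAP1-S127A reduced to replicate 2 and 1847 to 3079 without 1 library, the fewest without YAP1-S127A replicate 3. In YAP1 against MX they numbered 1055, with 601 to 1423 without 1 library. With total-count scaling they numbered 990, of which 311 were higher and 679 lower. Between the constructs they numbered 305, and 616 with total-count scaling (113 higher and 503 lower), 520 with no filter, 475 with DESeq2, 478 with only the groups compared, 151 with YAP1-S127A reduced to replicate 2 and 126 to 465 without 1 library. The replicate block gave 3426 calls in YAP1-S127A against MX, 1428 in YAP1 against MX and 472 between the constructs and changed no call among the 10 genes. Of the other named calls it lost those of TNFSF10 and CXCL8 in YAP1-S127A against MX and of MMP20 in YAP1 against MX (adjusted p = 0.0547). The numbers were not treated as pairing because the labels do not say whether they pair libraries. Best correlations with the own number, found for 3 of 9 libraries, cannot decide this with so few libraries per group. Differences of uncalled genes changed sign as follows, with the cause not tested beyond the shift of the all-gene median that total-count scaling brings. With total counts YAP1-S127A against MX gave -0.17 for BAX, -0.18 for BIRC2, -0.25 for BIRC3 and -0.22 for MCL1, YAP1 against MX gave -0.016 for BAX, -0.048 for BBC3 and -0.036 for BIRC2, and the constructs gave -0.15 for BAX, -0.14 for BIRC2 and -0.15 for BIRC3. BIRC3 in YAP1-S127A against MX and between the constructs gave -0.29 and -0.28 when reduced to replicate 2, and -0.40 and -0.30 with the mitochondrial share. BIRC3 in YAP1 against MX gave 0.014 with limma-voom and 0.022 with the replicate block, and BCL2 between the constructs gave 0.082 when reduced to replicate 2. Over the fits without 1 library, values in YAP1-S127A against MX ran from -0.042 to 0.14 for MCL1, -0.20 to 0.28 for BIRC3 and -0.079 to 0.21 for BAX. Those in YAP1 against MX ran from -0.016 to 0.15 for BIRC2, -0.12 to 0.21 for BIRC3, -0.026 to 0.28 for XIAP, -0.12 to 0.17 for BAX and -0.16 to 0.13 for BBC3. Those between the constructs ran from -0.097 to 0.061 for BCL2 and -0.19 to 0.22 for BIRC3. Among the other named called genes, 445 of 587 differences stayed called and 142 did not, all in the same direction.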
